A study of Mus musculus with 8 samples.

Results

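The tumour suppressor gene Trp53 and 9 of its best known target genes were examined in the RNA of Paneth cells, which sit at the bottom of the crypts of the small intestine and secrete antimicrobial peptides. The 10 genes, Trp53, Cdkn1a, Mdm2, Ccng1, Trp53inp1, Eda2r, Phlda3, Fas, Gdf15 and Zmat3, were found in the count table by matching its Ensembl IDs to GENCODE mouse symbols, which gave 10 of 55414 genes. Paneth cells had been purified by FACS from mouse small intestine, and stranded mRNA libraries were made from their RNA. The 8 libraries comprised 4 from animals of genotype DT TG, whose Paneth cells make diphtheria toxin (TG), and 4 from wild type animals (WT). Replicate numbers ran from 1 to 4 in each group. The study's methods describe its sorted Paneth cell samples as coming from individual mice, and the labels do not tie a library to an animal. The promoter that drives the toxin and the age of the animals were not found in the sources used here. Diphtheria toxin inactivates elongation factor 2 and so blocks protein synthesis in the cells that make it, and the study lists this experiment as one on cells purified once mature Paneth cells had been depleted. The comparison asks how p53 pathway transcripts differ between the cells sorted from these mice and from wild type mice.

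p53 is a transcription factor that is made continuously and destroyed continuously, because the ubiquitin ligase Mdm2, itself encoded by a p53 target gene, marks it for degradation. Damage to DNA or to ribosome production stabilises the protein, which then raises transcription of genes for cell cycle arrest (Cdkn1a), negative feedback (Mdm2, Ccng1), cell death (Fas, Trp53inp1, Eda2r), restraint of Akt signalling (Phlda3) and secreted stress signals (Gdf15). Because the control is mostly on the protein, the mRNA of Trp53 itself need not change when the pathway is active. In the intestinal crypt, p53 is best known for its part in the response of stem and progenitor cells to irradiation.

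p53 binds DNA at a 20-base response element made of 2 adjoining 10-base units, and 5 of the 10 genes held a match to its consensus with at most 2 mismatches within 2500 bases of the transcript start. The same search, in which the consensus is its own reverse complement and so covers both strands, found a match at 658 of 11917 tested genes with a start (5.52%). The matches are shown because they are the sequences through which this factor is known to act, and they are printed 5′ to 3′ on the strand of the gene in the GRCm39 assembly, with the central 4 bases of each 10-base unit in capitals.
Zmat3, chr3:32418480-32418499, minus strand, exon, 1418 bases after the start, 0 mismatches: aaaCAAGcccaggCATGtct
Ccng1, chr11:40646289-40646308, minus strand, outside the gene, 161 bases before the start, 1 mismatch: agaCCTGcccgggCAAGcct
Ccng1, chr11:40645763-40645782, minus strand, intron, 365 bases after the start, 1 mismatch: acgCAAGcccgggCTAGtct
Gdf15, chr8:71084616-71084635, minus strand, exon, 485 bases after the start, 1 mismatch: tgaCTTGcctgaaCTTGcct
Eda2r, chrX:96420140-96420159, minus strand, exon, 689 bases after the start, 2 mismatches: gggCAAGtccgggCCTGtgt
Fas, chr19:34269764-34269783, plus strand, intron, 1714 bases after the start, 2 mismatches: gggCATGtacaaaCATGtca
Cdkn1a, chr17:29309902-29309921, plus strand, outside the gene, 2827 bases before the start, 1 mismatch: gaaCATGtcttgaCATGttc

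The Cdkn1a match lay outside the 2500-base window and appeared when the window was widened to 5000 bases, as did another Zmat3 match 4402 bases before its start. In that wider window 6 of the 10 genes held a match, against 11.1% of tested genes. No match with at most 2 mismatches was found within 5000 bases of the start of Trp53, Mdm2, Trp53inp1 or Phlda3, which says only that these letters are not in this window. A match is a description of the sequence and not a measured binding site.

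**Figure D1:**
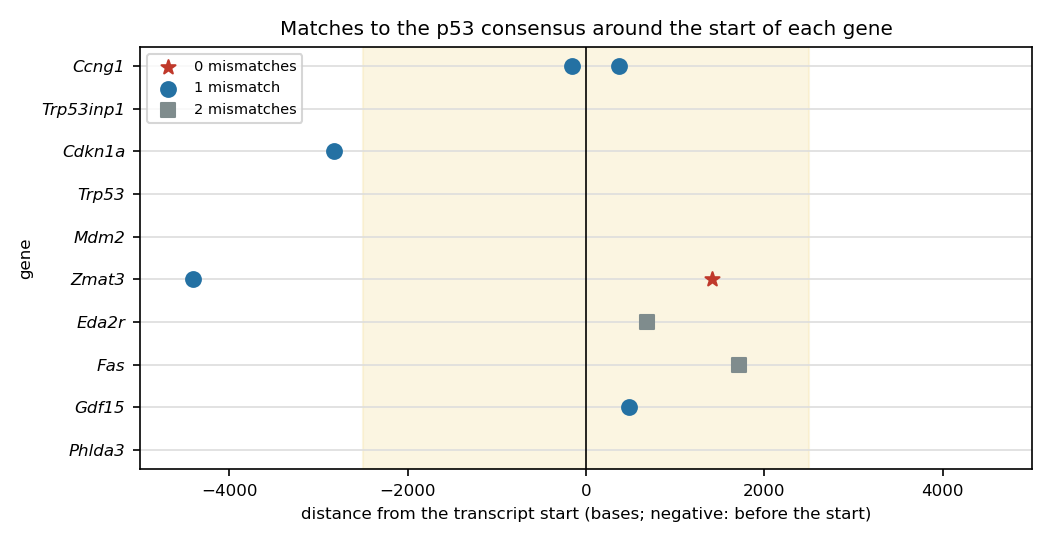
Matches to the p53 consensus around the transcript start of the 10 genes; the x axis gives the distance from the start in bases, each row is a gene, and the symbols separate 0, 1 and 2 mismatches. The shaded band is the 2500-base window, in which Ccng1, Zmat3, Gdf15, Eda2r and Fas have a match, and Trp53inp1, Trp53, Mdm2 and Phlda3 have none over the whole axis.

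Total counts were 13107397 to 16218434 per library. Replicates 1 and 2 of both groups had 0 counts of 4 Y-linked genes (Uty, Kdm5d, Eif2s3y and Ddx3y), and replicates 3 and 4 had 897 to 1564, so each group held both kinds of library. The labelled cell type was checked with 6 Paneth markers, which were abundant and summed to 222530 to 290250 CPM (counts per 1000000, scaled by TMM factors) in TG and 210510 to 298260 CPM in WT. Of these 6, Mmp7, Ang4 and Mptx2 were called lower in TG, with log2 fold changes of −0.59, −0.57 and −1.35, and none was called higher. Of 14 enterocyte markers 8 were called higher in TG, with sums of 634 to 779 CPM in TG and 430 to 541 CPM in WT. All 14 were fitted higher, with a median log2 fold change of 1.66, and the sum was carried by Anpep (361 against 315 CPM, not called). Goblet markers overlapped (4582 to 6990 against 6057 to 7168 CPM), as did stem cell markers (2073 to 2837 against 1976 to 2634 CPM), and 9 of 10 immune markers were below 1 CPM in every library, with Adgre1 and Nkg7 among those at 0 counts. In bulk RNA, fewer cells of a type and less RNA per cell cannot be told apart.

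Of the 10 genes, only Trp53inp1 differed between TG and WT by edgeR's quasi-likelihood test at an adjusted p below 0.05. Among all 11929 genes tested 2136 (17.9%) were called, 985 higher (8.26%) and 1151 lower (9.65%) in TG. The share of 1 in 10 was not tested against this background. With libraries scaled by total counts the split was 787 higher and 262 lower, and Trp53inp1 was still called (log2 fold change 1.56, edgeR adjusted p = 0.0141). The other 9 genes, among them p53 itself, its antagonist Mdm2 and the arrest gene Cdkn1a, had fitted log2 fold changes between −0.46 and 0.60. The median log2 fold change of the 10 genes was −0.03, beside 0.01 over all genes tested, with 4 fitted higher and 6 fitted lower in TG. By DESeq2 and by limma's voom with quality weights, Trp53inp1 was again called and no other of the 10 was.

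**Figure D2:**
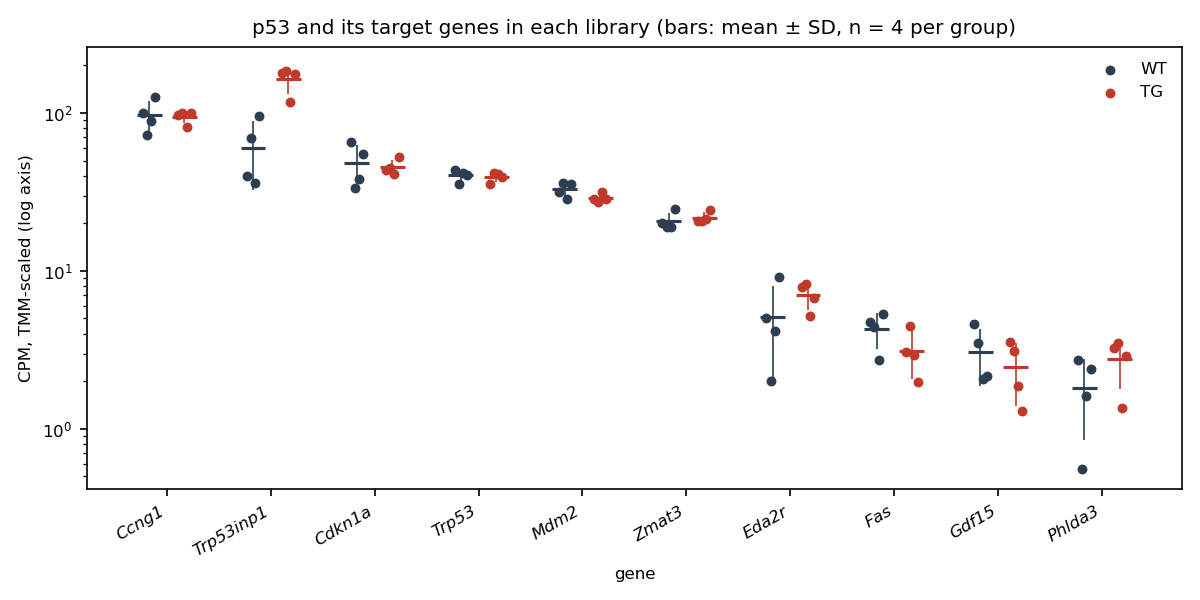
Level of each of the 10 genes in every library, in TMM-scaled CPM on a log axis, with WT in dark blue and TG in red; the horizontal bar is the group mean and the vertical bar the SD (n = 4 per group). The TG points of Trp53inp1, 117 to 184 CPM, all sit above its WT points, 35.9 to 96.1 CPM, while the points of the other 9 genes overlap between groups.

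Trp53 (ENSMUSG00000059552, chr11:69469669-69482701, plus strand), which encodes p53, was measured at 35.3, 41.8, 41.1 and 39.2 CPM in TG replicates 1 to 4. In WT replicates 1 to 4 its level was 43.5, 35.4, 41.9 and 40.6 CPM. The groups overlapped almost completely, with TG-1 and WT-2 as the lowest libraries of their groups. The log2 fold change of TG over WT was −0.04 ± 0.09 (SE), with a 95% interval of −0.23 to 0.16 and an adjusted p of 0.816 by edgeR. Trp53 was among the steadiest of the 10 genes, with a coefficient of variation of 7.34% in TG and 8.62% in WT. Its locus overlaps Wrap53, which has 963 counts on the opposite strand (here and for other overlapping genes, the sum over the 8 libraries), and the sources used here do not say whether counting used strand.

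Mdm2 (ENSMUSG00000020184, chr10:117524780-117546730, minus strand), the ubiquitin ligase that degrades p53, stood at 28.5, 27.2, 31.6 and 28.5 CPM in TG. The WT libraries gave 31.4, 36.3, 28.6 and 35.5 CPM. Only TG-3 reached into the range of WT, where WT-3 was lowest. Mdm2 had a log2 fold change of −0.19 ± 0.10 (95% interval −0.39 to 0.02, edgeR adjusted p = 0.195). Ccng1 (ENSMUSG00000020326, chr11:40639377-40646148, minus strand), which encodes cyclin G1, a feedback regulator of p53 that works through Mdm2, had 97.0, 99.7, 81.6 and 99.9 CPM in TG. Its WT levels of 99.9, 72.1, 89.0 and 126 CPM lay on both sides of the TG levels, with WT-2 lowest and WT-4 highest. For Ccng1 the log2 fold change was −0.03 ± 0.14 (95% interval −0.34 to 0.28, edgeR adjusted p = 0.895). Both consensus matches of Ccng1 printed above lie within 365 bases of its start. Ccng1 overlaps Nudcd2, which has 2490 counts on the opposite strand.

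Cdkn1a (ENSMUSG00000023067, chr17:29309936-29319701, plus strand) encodes p21, the inhibitor of cyclin-dependent kinases through which p53 arrests the cell cycle. Its TG libraries gave 43.3, 44.8, 41.1 and 52.5 CPM, and its WT libraries 65.8, 33.4, 38.1 and 54.8 CPM. The TG values all fell inside the range of WT, which ran from WT-2 at the bottom to WT-1 at the top. Cdkn1a gave a log2 fold change of −0.08 ± 0.20, with a 95% interval of −0.52 to 0.36 (edgeR adjusted p = 0.813). When libraries were scaled by their total counts, the fitted direction of Cdkn1a, Trp53 and Ccng1 turned from lower to higher in TG, and none was called. Zmat3 (ENSMUSG00000027663, chr3:32388941-32420163, minus strand), which encodes an RNA-binding zinc finger protein, carried the exact consensus match and was level between the groups. Zmat3 had 20.8, 20.6, 21.3 and 24.4 CPM in TG and 20.2, 18.9, 19.1 and 24.5 CPM in WT, with replicate 4 highest in both. Its log2 fold change was 0.08 ± 0.11 (95% interval −0.15 to 0.31, edgeR adjusted p = 0.661).

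Trp53inp1 (ENSMUSG00000028211, chr4:11156412-11175230, plus strand) encodes a stress-induced protein that binds kinases acting on p53 and is known to promote cell death and autophagy. Its raw counts were 2850, 2622, 2079 and 2307 in TG and 502, 999, 537 and 1291 in WT. On the CPM scale these were 178, 184, 117 and 175 in TG and 40.1, 69.6, 35.9 and 96.1 in WT. All TG libraries were above all WT libraries, as in 10% of all genes tested, beside 12% with TG below WT and 22% in either direction, and the closest were TG-3 and WT-4. The mean was 164 ± 31.3 CPM (SD, n = 4) in TG and 60.4 ± 28.1 CPM in WT. Trp53inp1 was 2.71-fold higher in TG (95% interval 1.54 to 4.78), a log2 fold change of 1.44 ± 0.35, with an adjusted p of 0.0321 by edgeR.

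The direction of the Trp53inp1 change held in every one of 19 other settings, with log2 fold changes of 1.15 to 1.75, but the call was lost in 8 of them. It was lost without TG-1 (edgeR adjusted p = 0.0808), TG-2 (0.0894), TG-4 (0.0686), WT-1 (0.0771) or WT-2 (0.0554), and without a filter on low counts (0.0594). With the presence of Y-linked counts as a term the edgeR adjusted p was 0.0510. In the 4 libraries without Y-linked counts the log2 fold change of Trp53inp1 was 1.72 (edgeR adjusted p = 0.00896), and in the 4 with them it was 1.15 (0.508). The test of this difference gave an adjusted p of 0.965 in the edgeR interaction fit. The summed enterocyte markers were also higher in TG, at 634, 640, 685 and 779 CPM in TG-1 to TG-4. In WT-1 to WT-4 they summed to 515, 452, 430 and 541 CPM. Within TG the order of libraries differed, with TG-3 lowest for Trp53inp1 and TG-1 lowest for the markers. The median log2 fold change over the 14 enterocyte markers was 1.66, and 3 of the 6 Paneth markers were lower. The part of either marker list in the result was not tested.

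Eda2r (ENSMUSG00000034457, chrX:96320270-96420847, minus strand), a receptor of the tumour necrosis factor family that binds ectodysplasin A2, was rare, with 29 to 126 counts per library. Its level was 7.88, 8.23, 5.19 and 6.69 CPM in TG and 5.04, 2.02, 4.15 and 9.15 CPM in WT. WT-4 was the highest of the 8 libraries and WT-2 the lowest, so the groups overlapped through WT-4. The log2 fold change of Eda2r was 0.46 ± 0.36 (95% interval −0.35 to 1.27, edgeR adjusted p = 0.408). Without WT-4 it was 0.91 and called, with an edgeR adjusted p of 0.0470, and without WT-2 it was 0.19. In the libraries without Y-linked counts the log2 fold change of Eda2r was 1.21 (edgeR adjusted p = 0.0716) and in those with them −0.16 (0.859). The test of that difference gave an adjusted p of 0.864 in the edgeR interaction fit, in which 3 of all genes tested (0.0251%) were called, none of the 10 among them. At an unadjusted p below 0.05 stood 5.73% of all genes in that fit, and Eda2r was one of them.

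Fas (ENSMUSG00000024778, chr19:34268001-34305173, plus strand), the death receptor of the FasL pathway, had 26 to 72 counts per library. Fas levels were 3.07, 4.50, 2.94 and 1.98 CPM in TG and 4.72, 4.39, 2.74 and 5.36 CPM in WT. TG-4 was lowest and WT-4 highest, and the groups overlapped. Fas was fitted at a log2 fold change of −0.46 ± 0.26 (95% interval −1.01 to 0.10, edgeR adjusted p = 0.239). The gene of its ligand, Fasl, had 0 counts in every library, which allows a level of up to 0.169 to 0.240 CPM per library (3 counts, for counting error only).

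Phlda3 (ENSMUSG00000041801, chr1:135693809-135697686, plus strand) encodes a small protein that competes with Akt for membrane lipids, and it was the least abundant of the 10 genes by CPM in WT. Its 8 to 52 counts per library corresponded to 3.25, 3.52, 1.35 and 2.89 CPM in TG and 2.72, 0.557, 1.61 and 2.38 CPM in WT. TG-1, TG-2 and TG-4 were above all of WT and TG-3 was below 3 of the WT libraries. The log2 fold change of Phlda3 was 0.60 ± 0.41 (95% interval −0.28 to 1.48, edgeR adjusted p = 0.322). It ran from 0.30 without WT-2 to 0.85 without WT-1, and was 1.07 in the libraries without Y-linked counts and 0.07 in those with them (edgeR interaction adjusted p = 0.933), and Phlda3 was called in none of these fits. Gdf15 (ENSMUSG00000038508, chr8:71082038-71091537, minus strand) encodes a secreted stress hormone whose receptor, Gfral, had 0 counts in every library. Gdf15 levels of 3.57, 3.10, 1.86 and 1.29 CPM in TG and 4.64, 3.48, 2.07 and 2.16 CPM in WT rested on 17 to 58 counts. In both groups replicates 1 and 2, which lacked Y-linked counts, were the higher libraries. The log2 fold change of Gdf15 was −0.32 ± 0.34 (95% interval −1.04 to 0.41, edgeR adjusted p = 0.544). Its size depended on single libraries, from −0.065 without WT-1 and −0.12 without TG-4 to −0.55 without TG-1, and no such fit called Gdf15.

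Per length of the gene's exons, the 10 genes spanned a wide range of levels in TPM (transcripts per 1000000). In WT, Ccng1 led with 22.1 ± 4.38 TPM (SD, n = 4), followed by Trp53inp1 at 8.29 ± 3.57, Cdkn1a at 7.82 ± 1.16, Trp53 at 5.59 ± 1.08 and Mdm2 at 4.37 TPM. Fas and Zmat3 both stood at 1.84 TPM, Gdf15 at 1.35, Phlda3 at 0.680 and Eda2r at 0.666 TPM. The WT ranges of neighbours in this order overlapped except between Ccng1 and Trp53inp1, between Mdm2 and Fas, and between Gdf15 and Phlda3. In TG, Trp53inp1 at 25.4 ± 4.29 TPM and Ccng1 at 24.5 ± 1.80 TPM stood together at the top. Over the means of all libraries, Ccng1 lay at the 93.8th and Trp53inp1 at the 90.8th percentile of the genes tested, and Eda2r at the 21.6th. The order depended on the length used. With the longest transcript in place of all exons, Trp53inp1 stood in WT at 9.10 TPM, behind Ccng1, Cdkn1a at 10.8, Trp53 at 9.54 and Mdm2 at 9.32 TPM, and Phlda3 and Eda2r, both at 0.72 TPM, exchanged places.

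The libraries did not rank the 10 genes alike. WT-2 was the lowest WT library for 6 genes (Trp53, Cdkn1a, Ccng1, Eda2r, Phlda3 and Zmat3) and the highest for Mdm2. WT-4 was highest of WT for 5 (Ccng1, Trp53inp1, Eda2r, Fas and Zmat3) and WT-1 for the other 4. Among TG libraries, TG-2 was highest for 5 genes and TG-3 lowest for 5 (Cdkn1a, Ccng1, Trp53inp1, Eda2r and Phlda3). Spread within the group was larger in WT for 8 of the 10 genes, as it was for 66.2% of all genes tested. The coefficient of variation of Cdkn1a was 31.2% in WT and 10.9% in TG, and that of Trp53inp1 was 46.5% in WT and 19.1% in TG, whereas Fas and Gdf15 varied more in TG.

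**Figure D3:**
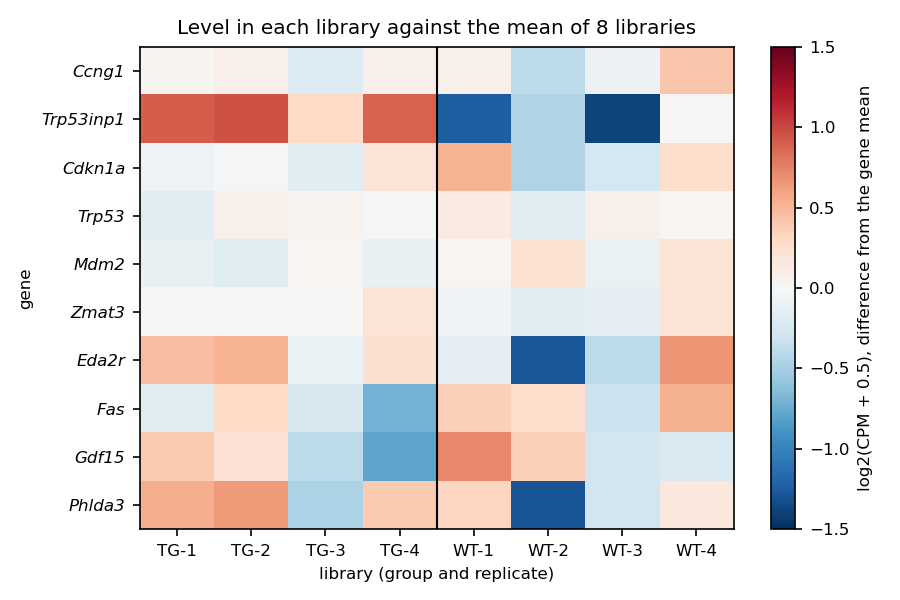
Level of each gene in each library as the difference of log2(CPM + 0.5) from the gene's mean over the 8 libraries, red above and blue below the mean, with the vertical line separating TG from WT. Trp53inp1 alone is red in all 4 TG libraries and not above 0.02 in any WT library, and WT-2 is blue for 7 of the 10 genes, most deeply for Eda2r and Phlda3.

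Further p53 target genes were called in both directions. Of 31 others listed, 28 were tested, 4 were called higher and 2 lower in TG by edgeR, which is 21.4% beside 17.9% of all genes, and the median log2 fold change was 0.12 beside 0.01. Fitted values were higher in TG for 21 of the 28 and lower for 7, beside 6115 and 5814 of all genes, and with total counts the calls were 4 higher and 0 lower. The higher genes were Abhd4, a lipid hydrolase, at 22.3 ± 2.46 against 15.9 ± 1.19 CPM (log2 fold change 0.49 ± 0.11, edgeR adjusted p = 0.00737), Dglucy, which encodes a mitochondrial D-glutamate cyclase, Polk, the translesion DNA polymerase kappa, and Gadd45a, a DNA damage and stress sensor. Dglucy had 19.4 ± 3.42 against 12.1 ± 2.41 CPM (0.68 ± 0.16, edgeR adjusted p = 0.00965). Gadd45a had 5.72 ± 0.740 against 3.54 ± 0.823 CPM (0.68 ± 0.20, edgeR adjusted p = 0.0275). Gadd45a overlaps E230016M11Rik, which has 38 counts, and its call was lost without TG-2, TG-4, WT-1, WT-2 or WT-4 (edgeR adjusted p of 0.0568 to 0.0840). Polk had 12.2 ± 1.28 against 8.64 ± 0.649 CPM (0.49 ± 0.13, edgeR adjusted p = 0.0169), was not called without TG-2 (0.0686), and overlaps Cert1, which has 6632 counts.

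The lower genes were Aen and Rps27l. Aen, an apoptosis-enhancing exonuclease, was at 11.97 ± 0.916 CPM in TG against 17.9 ± 1.94 in WT (log2 fold change −0.58 ± 0.11, edgeR adjusted p = 0.00393). Every TG library was below every WT library for Aen, as in 12% of all genes tested. Rps27l, a ribosomal protein-like gene, was at 86.2 ± 8.01 against 111 ± 14.6 CPM (−0.37 ± 0.10, edgeR adjusted p = 0.0265) and was not called without TG-1, TG-2, WT-1 or WT-4 (0.0599 to 0.0940). With total counts neither was called, at edgeR adjusted p of 0.0671 for Aen and 0.158 for Rps27l, while both stayed lower. The death genes of the Bcl-2 family, singled out after their values were seen, were Bbc3 (Puma) at a log2 fold change of 0.49 ± 0.17 (edgeR adjusted p = 0.0597), Bax at 0.06 ± 0.13 (0.762) and Pmaip1 (Noxa) at −0.22 ± 0.17 (0.393). None of these 3 was called with all 8 libraries, while Bbc3 was called without WT-3 and in the libraries without Y-linked counts (log2 fold change 0.85). At an unadjusted p below 0.05 stood 13 of the 28 tested target genes, beside 33.1% of all genes.

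**Figure D4:**
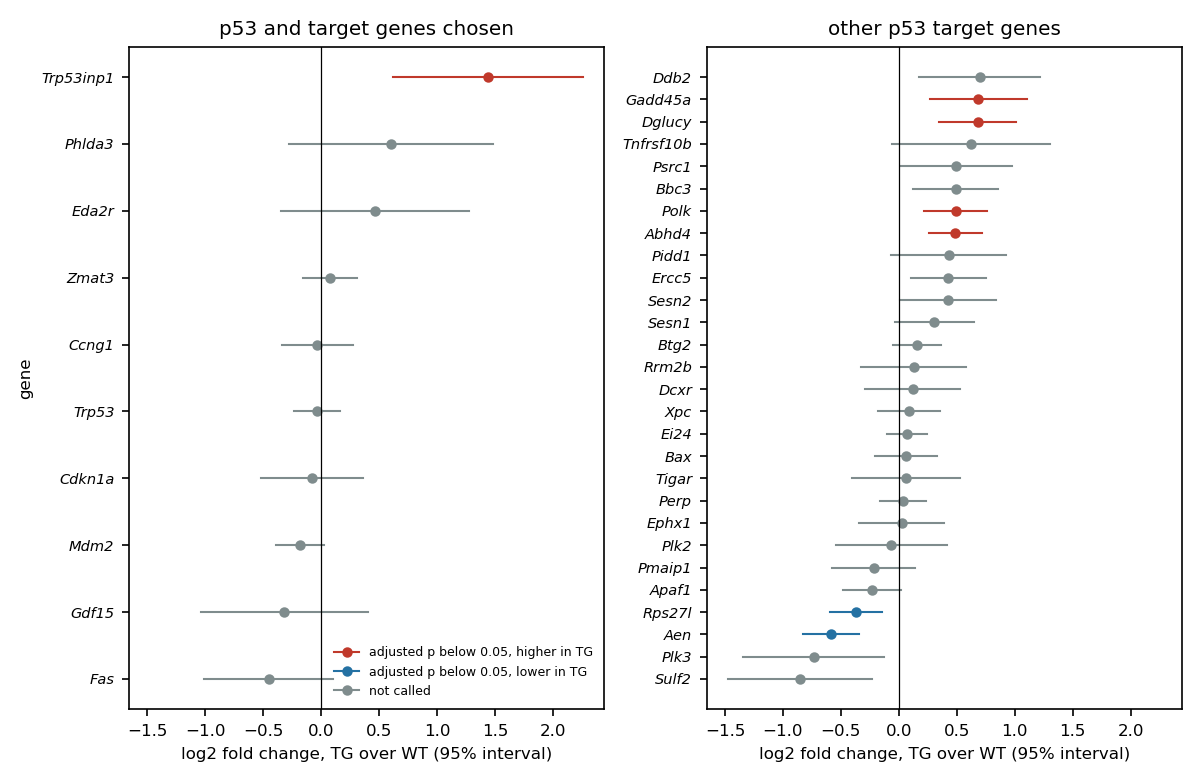
Log2 fold change of TG over WT with its 95% interval (edgeR) for the 10 genes, left, and for the 28 other p53 target genes tested, right; red marks genes called higher in TG, blue genes called lower, and grey genes not called. On the left only the interval of Trp53inp1, 0.62 to 2.26, lies wholly on one side of 0, and on the right 4 genes are red and 2 are blue.

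Regulators and partners of p53 gave 3 called genes of 23 tested (13%), beside 17.9% of all genes tested. All 3 were called higher in TG, beside 8.26% of all genes, and the median log2 fold change was 0.16 beside 0.01. Atm, the kinase that signals DNA breaks to p53, had 29.2 ± 4.92 against 21.4 ± 3.22 CPM (log2 fold change 0.45 ± 0.13, edgeR adjusted p = 0.0336). Sirt1, a deacetylase of p53 whose gene overlaps Herc4 with 2019 counts, had 13.4 ± 2.05 against 9.80 ± 0.830 CPM (0.44 ± 0.14, edgeR adjusted p = 0.0354). Crebbp, the acetyltransferase CBP, had 32.5 ± 2.15 against 22.4 ± 6.58 CPM (0.53 ± 0.16, edgeR adjusted p = 0.0423). The calls depended on which libraries were kept. Atm was not called in 6 of 8 fits that left out 1 library (all but those without TG-4 or WT-4, edgeR adjusted p of 0.0567 to 0.116). Nor was Atm called with replicate number as a block. Sirt1 was not called in 6 (all but those without TG-3 or WT-4, 0.0592 to 0.116) and Crebbp in 7 (all but that without WT-2, 0.0545 to 0.116). Cdkn2a, whose product Arf restrains Mdm2, and the p53 relative Trp63 had 0 counts in every library.

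Downstream of p21, none of 20 cell cycle genes listed as repressed through it was called by edgeR, beside 17.9% of all genes tested. At an unadjusted p below 0.05 stood 2 of them, and their median log2 fold change was 0.15. DESeq2 called 0 of them, with 3 at an unadjusted p below 0.05, and limma's voom called 1, with 4. Mki67, the proliferation marker, had 89.7 ± 4.24 CPM in TG and 65.8 ± 23.0 in WT (0.44 ± 0.21, edgeR adjusted p = 0.182). Mki67 was not called in 17 of 19 other settings. It was called without WT-3 (edgeR adjusted p = 0.00900) and with replicate number as a block. Top2a, a topoisomerase of dividing cells, had a log2 fold change of 0.12 ± 0.13 (edgeR adjusted p = 0.556). Of 14 cyclins, kinases and other inhibitors 3 were called by edgeR (21.4%), beside 17.9% of all genes tested. DESeq2 also called 3, whereas limma's voom called 7, 5 of them higher and 2 lower in TG. Ccnd2, cyclin D2, rose from 76.5 ± 7.24 to 109 ± 13.1 CPM (0.51 ± 0.10, edgeR adjusted p = 0.00467) and its partner kinase gene Cdk6 from 30.3 ± 4.50 to 44.6 ± 5.82 CPM (0.56 ± 0.12, edgeR adjusted p = 0.00692). The inhibitor gene Cdkn2b, which encodes p15, fell from 12.8 ± 2.71 to 7.92 ± 1.35 CPM (−0.69 ± 0.17, edgeR adjusted p = 0.0137), and it was not called with total counts.

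The integrated stress response is the program through which Gdf15 can be raised without p53. Of 15 of its genes 3 were called (20%), beside 17.9% of all genes tested, and the median log2 fold change was −0.23. All 3 were called lower in TG, beside 9.65% of all genes. They were the transcription factor genes Cebpb (−0.68 ± 0.16, edgeR adjusted p = 0.0125) and Atf3 (−0.75 ± 0.22, 0.0286) and the serine synthesis gene Psat1 (−1.35 ± 0.32, 0.0309). Psat1 stood at 40.3 ± 15.6 CPM in TG and 103 ± 25.6 CPM in WT. Cebpb, which overlaps Peds1 with 73 counts, was not called without TG-1 (edgeR adjusted p = 0.0515), Atf3 not without TG-1, TG-2, TG-4 or WT-3 (0.0543 to 0.0931), and Psat1 not without TG-1, TG-3, WT-1 or WT-2 (0.0586 to 0.0811). With total counts 1 of the 15 was called, and DESeq2 called 5.

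Of 14 tested genes for partners of the Fas, Eda2r and Gdf15 receptors and the death receptor pathway, 4 were called (28.6%). This stood beside 17.9% of all genes tested, and the median log2 fold change was −0.16. Ret, the signalling co-receptor of Gfral, was lower in TG (−0.78 ± 0.16, edgeR adjusted p = 0.00570), as were the tumour necrosis factor receptor gene Tnfrsf1b (−0.74 ± 0.16, 0.00733) and the death receptor kinase gene Ripk1 (−0.32 ± 0.09, 0.0244). Casp9, the initiator caspase of the mitochondrial pathway, was higher (0.41 ± 0.12, edgeR adjusted p = 0.0319). Ripk1, which overlaps Serpinb6a with 9627 counts, was not called without TG-1, TG-2 or WT-1 (edgeR adjusted p of 0.0512 to 0.0724), and Casp9 not without TG-1, TG-2, TG-4, WT-1, WT-2 or WT-4 (0.0520 to 0.0920).

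In the Akt pathway, which Phlda3 restrains, 3 of 8 tested genes were called (37.5%), beside 17.9% of all genes tested. The median log2 fold change was 0.03. Akt2 was lower in TG at 35.7 ± 1.60 against 51.1 ± 5.07 CPM (−0.52 ± 0.09, edgeR adjusted p = 0.00224), and so was Akt1 at 102 ± 8.21 against 131 ± 14.5 CPM (−0.36 ± 0.10, 0.0210). Rictor, a subunit of the complex that phosphorylates Akt, was higher (0.54 ± 0.11, edgeR adjusted p = 0.00443). Akt1 was not called without TG-1 (0.0820) or TG-2 (0.0724), and it overlaps Zbtb42 and Siva1, among genes that together have 2761 counts. Tnfrsf1b, Ripk1, Casp9, Akt1 and Akt2 were not called with total counts, and each kept its direction.

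**Figure D5:**
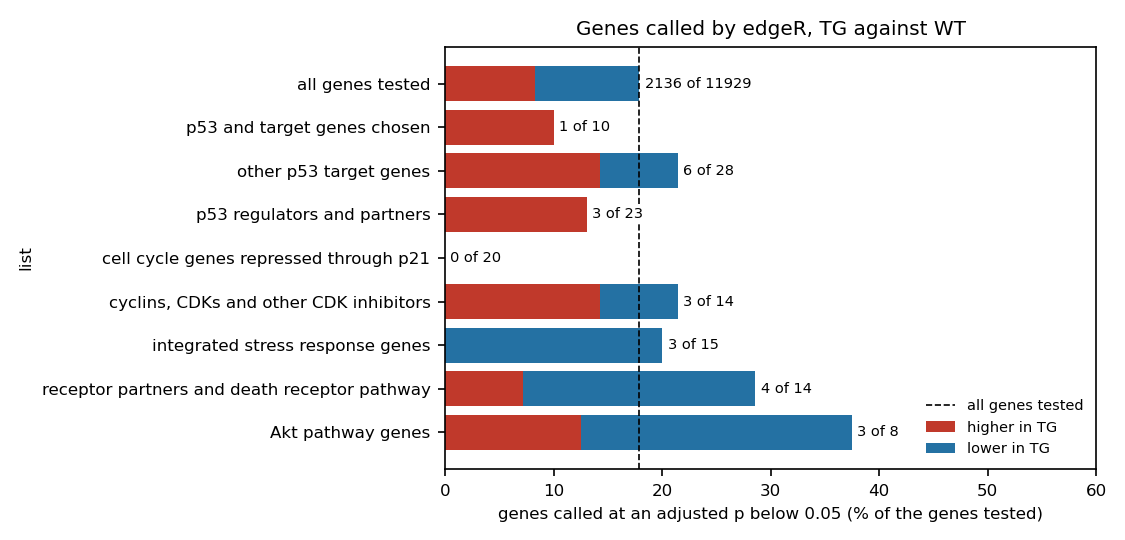
Share of the tested genes of each list that edgeR called at an adjusted p below 0.05, in percent, with genes higher in TG in red and lower in blue and the number called of those tested beside each bar; the dashed line marks all genes tested. The 10 genes (1 of 10), the p53 regulators and partners (3 of 23) and the cell cycle genes repressed through p21 (0 of 20) lie below the line at 17.9%, and the Akt pathway genes (3 of 8) lie farthest above it.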

How the data were processed

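RNA of FACS-purified mouse Paneth cells was sequenced in 4 TG and 4 WT libraries, grouped by the labels. The authors deposited whole-number counts per Ensembl gene and library. The submitters' processing notes name FastQC 0.12.0, STAR 2.7.0a, DESeq2 and mm39 without roles, and for the counting tool, annotation, strand setting and treatment of multiply aligned reads nothing is given in the sources used here. Symbols, positions and exon lengths came from GENCODE M39 (GRCm39), which matched 54749 of 55414 IDs. Genes passing filterByExpr were tested with edgeR 4.0.16 (R 4.3.3, robust quasi-likelihood, TMM, Benjamini-Hochberg at 0.05 over 11929 genes, group as the only term), after a check on simulated counts. The SE is the log2 fold change over the root of F. Alternatives were DESeq2 1.42.0, limma 3.58.1 voom, other scalings and filters, a replicate block, a Y-linked term and omission of each library. Replicate numbers do not mark shared animals in the labels. TPM used the union of exons.

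The 10 genes and all lists were chosen with earlier results of these data known. Named genes were all 10, and of each other list the called genes, up to 4 by smallest p in each direction, or the 2 highest in mean CPM where none was called. Outside this rule, Bbc3, Bax, Pmaip1 and genes without counts (Fasl, Gfral, Cdkn2a and Trp63) were also named, as were single markers and overlapping genes. The consensus search allowed 2 mismatches, no spacer and the fixed C and G of each unit, around the Ensembl canonical start.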

Additional observations from a re-analysis of the deposited data

Results flagged for a closer look

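Single libraries stood apart from the other 3 of their group in 5 of 68 groups examined by Dixon's criterion (the gap to the nearest library as a share of the group's range), where chance gives about 3.4, or 1 in 20. Among the 10 genes, TG-3 was low for Ccng1, with 81.6 CPM against 97.0 to 99.9 in the other TG libraries (gap 0.844 of the range). TG-3 was also low for Trp53inp1, with 117 CPM against 175 to 184 (0.864), and was still above the highest WT library. TG-2 was high for Abhd4, with 26.0 CPM against 20.9 to 21.3 (0.924), and for Polk, with 14.1 against 11.4 to 11.7 (0.881), and low for Cdkn2b, with 5.91 against 8.38 to 8.81 (0.854). Any technical source of these values was not tested.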

How the results depend on the processing

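Scaling by total counts shifted the median gene from a log2 fold change of 0.01 to 0.12, called 1049 genes in place of 2136 and raised the share of calls that were higher in TG from 46.1% to 75%. Relative to that shift, Trp53 (0.084), Cdkn1a (0.063) and Ccng1 (0.10) were below the median although their sign turned. Taken alone, the 4 libraries with Y-linked counts gave 217 genes, and those without gave 1138. Leaving out 1 library at a time gave 1055 to 2228 genes (1083 without TG-1, 1055 without TG-2). Of the 10 genes, 0 were called with Y-linked libraries alone (edgeR, 0 at an unadjusted p below 0.05), 0 without a filter (4) and 0 with a Y-linked term (1), and leaving out 1 library gave 0 to 2 (Trp53inp1 and Eda2r without WT-4). Other target genes called, 6, became 0 with Y-linked libraries alone (3 at an unadjusted p below 0.05) and 11 without a filter, and 3 to 9 when 1 library was left out (3 without TG-2). Regulators called, 3, became 0 (1 unadjusted) with Y-linked libraries alone and 1 with total counts, and 0 to 2 when 1 library was left out (0 without TG-1, TG-2, WT-1 or WT-3). With 1 library left out, log2 fold changes ran from −0.097 to 0.019 for Trp53 (positive without TG-1), −0.22 to 0.11 for Cdkn1a (positive without WT-1) and −0.15 to 0.12 for Ccng1 (positive without TG-3 or WT-4). They ran from −0.25 to −0.14 for Mdm2, −0.68 (without TG-2) to −0.30 (without TG-4) for Fas and 0.02 (without TG-4) to 0.17 (without WT-4) for Zmat3. Signs also turned for Cdkn1a (0.013 in Y-linked libraries), Ccng1 (0.19 in libraries without Y-linked counts) and Eda2r (−0.16 in Y-linked libraries), none of them called. DESeq2 called 2401 genes and voom 2507. A consensus match was found for 1 gene with no mismatch (0.126% of tested genes), 3 with at most 1 (0.797%), 8 with at most 3 (22.8%) and 3 within 1000 bases (1.93%). With a replicate block 2203 genes were called by edgeR, 1 of the 10 (Trp53inp1, log2 fold change 1.53, adjusted p = 0.00295), 8 other targets and 2 regulators (Crebbp and Sirt1). Same-numbered libraries of the 2 groups correlated at 0.08, 0.07, 0.29 and 0.23 in their deviations from the group means. Values for differently numbered libraries are not given here, so these cannot decide whether the numbers pair the samples. The labels state no pairing, and the main fit has no replicate term. The cause of the differences between settings was not tested. Phlda3, Fas and Gdf15 had under 100 counts in every library.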
